A study of Mus musculus with 2 samples.

Results

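The major urinary protein genes (Mup) were followed by name through a comparison of aortic wall RNA from 2 segments of the vessel. The members were all gene spots whose name, as printed in the files or as updated, was Mup followed by a number. They came to 7 of the 41174 probes and carried 4 symbols, Mup1 (3 probes), Mup3 (2 probes), Mup4 and Mup5, and the accessions listed for 1 of the Mup1 probes add Mup2, which makes 5 genes of 28655 names on the array. The family was taken up because some of its probes were known to differ between the segments, so the ratios below are a description and none of them is tested.

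Mice lacking apolipoprotein E (apoE-/-), which develop atherosclerosis, were used at 16 weeks of age. The arch pool, from the segment the labels call prone, came from the root and arch of the aorta together with 2 mm of the adjoining thoracic aorta. The thoracic pool, from the segment they call resistant, held RNA of the next 6 mm. Each pool combined RNA of 6 mice (3 males, 3 females) after the vessels had been perfused with Triton X-100 to take away the endothelium, and every mouse carried the same apoE deletion, so no wild-type control enters. Both pools went onto each of 2 arrays, 1 per dye, with arch in Cy3 and thoracic in Cy5 on array 1 and the reverse on array 2. Both arrays read the same RNA and count as 1 replicate. Each ± is the SD between the 2 arrays, the variation from mouse to mouse is unknown, and without it p-values are not given.

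Major urinary proteins are small secreted lipocalins, barrel-shaped carriers of hydrophobic molecules. In mice they are made chiefly by the liver, pass from blood into urine and carry the volatile pheromones by which animals recognise each other. Their transcription in liver responds to growth hormone, sex hormones, thyroid hormone and glucocorticoids, and single members are known from tear, salivary and mammary glands.

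The genes form 1 family on chromosome 4, where the RefSeq gene table of GRCm38.p6 lists 22 of them. The stretches upstream of their start sites show how alike the copies are, and those of Mup4, Mup2 and Mup3 are printed because probes listed for these genes had both large and small ratios. Each is the 250 bases before the annotated start, from RefSeq's GRCm38.p6 promoters, written 5′ to 3′ on the gene's own minus strand, with the motif TATATAA in capitals. Mup4 lies at chr4:59960668-59960917, Mup2 at chr4:60139857-60140106 and Mup3 at chr4:62087318-62087567.
Mup4: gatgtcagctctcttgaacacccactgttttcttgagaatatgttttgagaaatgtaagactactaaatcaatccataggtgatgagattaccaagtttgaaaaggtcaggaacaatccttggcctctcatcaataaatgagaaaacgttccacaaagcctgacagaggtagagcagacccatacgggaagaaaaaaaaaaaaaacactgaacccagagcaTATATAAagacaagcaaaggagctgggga
Mup2: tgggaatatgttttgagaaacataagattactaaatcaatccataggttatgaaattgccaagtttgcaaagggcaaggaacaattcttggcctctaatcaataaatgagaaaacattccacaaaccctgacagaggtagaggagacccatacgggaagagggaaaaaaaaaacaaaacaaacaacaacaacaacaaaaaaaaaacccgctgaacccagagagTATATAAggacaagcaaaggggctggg
Mup3: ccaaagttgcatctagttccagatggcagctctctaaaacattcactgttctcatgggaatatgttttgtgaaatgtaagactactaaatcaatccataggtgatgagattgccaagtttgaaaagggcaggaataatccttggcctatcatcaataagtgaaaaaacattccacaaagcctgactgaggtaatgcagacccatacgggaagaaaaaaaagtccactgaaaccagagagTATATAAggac

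Of the family, 14 genes matched an entry of those promoters, and Mup1 and Mup5 did not, so their upstream stretches were not read. The 91 pairs among the 14 had a median identity of 90.8% over the aligned bases, from 71.9% (Mup10 and Mup21) to 98.8% (Mup15 and Mup19). Mup4 and Mup3 were 87.5% identical, Mup4 and Mup2 78.8%, and Mup2 and Mup3 74.4%. The motif TATATAA, searched on both strands, was found in 11 of the 14 windows and in 3.04% of all 32851 promoter windows of that length. It begins 29 bases before the annotated start of Mup4, 27 before that of Mup2 and 11 before that of Mup3. The windows of Mup7, Mup11 and Mup14, where it was not found, stop before or within the stretch that carries it in the other copies. Whether those copies hold the motif was therefore not read. The motifs TTCNNNGAA, the core of a STAT site, and TTGCNNAA, a form of the C/EBP site, were in none of the 14, against 7.02% and 9.56% of all windows. The 14 windows are close copies and not 14 separate observations, so nothing is read from these motif counts beside those shares. No probe sequence was used here, so which copies a probe hybridises with is known only from the accessions listed for it.

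After normalization all 7 Mup probes had a ratio of arch over thoracic below 1 on both arrays, and 5 of them passed the size rule towards the thoracic pool. That rule asks for a mean ratio of 2-fold or more and for 1.5-fold or more on both arrays with the same sign. Of the 32176 probes bright enough to compare, 0.127% passed in that direction, and since the family was chosen on this contrast nothing is read from the difference. No Mup probe passed towards the arch pool, where 0.373% of all probes did. In the scanner's own deposited ratios 5 Mup probes again passed towards the thoracic pool, as did 0.298% of all probes. The Mup probes had log2 ratios of arch over thoracic from -3.23 to -0.20 with a median of -1.21, where all probes compared had a median of 0.00 and 33.0% of them lay below 0 on both arrays. In a bulk sample, fewer cells of a type and less RNA per cell cannot be told apart.

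**Figure D1:**
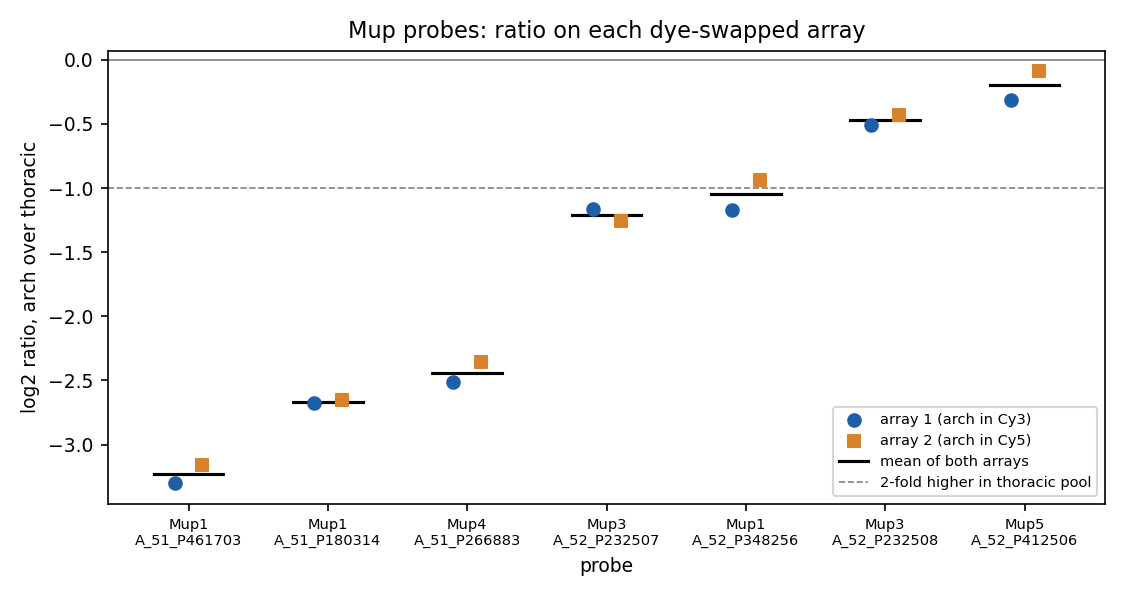
Log2 ratio of arch over thoracic for each of the 7 Mup probes on array 1 (circles) and array 2 (squares), with the mean of both as a bar. All points lie under 0, the means run from -3.23 to -0.20, and the dashed line at -1 marks a level 2-fold higher in the thoracic pool.

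Mup1, a member secreted by liver, had the largest difference. Its probe A_51_P461703, listed for Mup1, Mup2 and Mup5 transcripts, gave mean spot signals of 342.0 and 435.9 scanner units in the arch pool on arrays 1 and 2, and 3957.8 and 2917.1 in the thoracic pool. Both thoracic signals were far above both arch signals, and the order held whichever dye the pool carried. After normalization the log2 ratio was -3.30 on array 1 and -3.16 on array 2, a mean of -3.23 ± 0.10, or 9.38-fold higher in the thoracic pool. That was the second lowest ratio (rank 2) of the 32176 probes.

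The second Mup1 probe, A_51_P180314, was designed on a clone that RefSeq's synonyms assign to Mup10. Its arch signals were 135.7 and 136.1 and its thoracic signals 809.0 and 629.8. The arch signals were 1.43 and 1.75 times the mean of the negative control spots in the same channels, and the thoracic ones 10.5 and 6.49 times. The arch pool was therefore close to unspecific signal on this probe while the thoracic pool was well clear of it. The log2 ratios were -2.68 and -2.65 (-2.67 ± 0.02, 6.34-fold). The log2 ratio was -3.45 with no offset and -3.58 in the scanner's own deposited ratios.

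The third Mup1 probe, A_52_P348256, was dim in both pools. It gave 110.3 and 117.1 in the arch pool and 211.5 and 196.4 in the thoracic pool. On array 1 the arch signal was lower than the highest of the 314 negative control spots (122.7), so the size of this ratio is poorly fixed. Its log2 ratios of -1.17 and -0.94 averaged -1.05 ± 0.16 (2.08-fold), and it did not reach 2-fold without background subtraction (-0.85) or on array 2 alone (-0.94). The probes A_51_P461703 and A_52_P348256 differed in ratio by -2.18 ± 0.06 log2 units, and by -1.52 ± 0.23 in the deposited ratios.

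Mup4, which is known from secretory glands of the head, was the other bright member. Its probe A_51_P266883, listed for Mup4 transcripts alone, read 343.6 and 451.3 in the arch pool and 2259.8 and 1755.5 in the thoracic pool. As for Mup1, the pools did not overlap on either array. The log2 ratios were -2.51 and -2.36 (-2.44 ± 0.10), a thoracic level 5.41 times the arch level, at rank 8 from the thoracic end of all probes compared. Unlike those of the dim probes, this ratio changed little with the processing, between -2.64 and -2.34 in every setting tried.

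**Figure D2:**
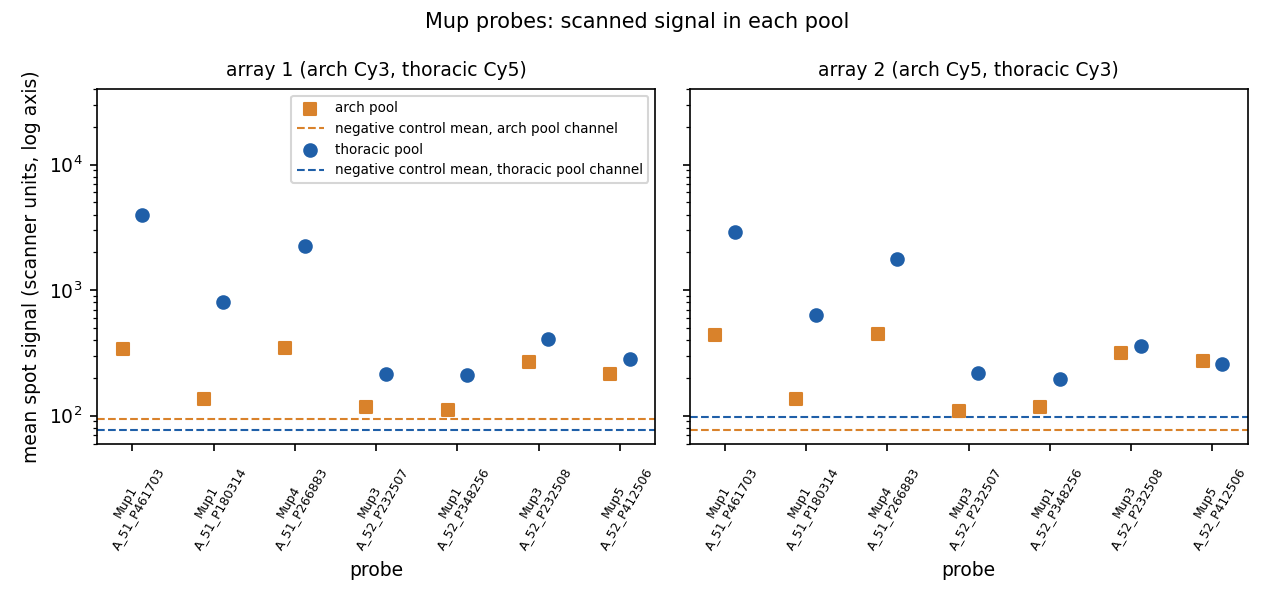
Mean spot signal of the 7 Mup probes in the arch pool (squares) and the thoracic pool (circles), on a log axis in scanner units, array 1 left and array 2 right, with the mean of the negative control spots of each channel dashed. The bright Mup1 and Mup4 probes separate the pools on both arrays, the dim Mup1 and Mup3 probes have arch signals between 108.0 and 117.9, and the Mup5 signals lie close together.

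Mup3 is a liver-expressed member, and its 2 probes, which the files assign to the same transcript, gave unequal ratios. Probe A_52_P232507 read 117.9 and 108.0 in the arch pool and 214.9 and 218.8 in the thoracic pool, with log2 ratios of -1.16 and -1.26 (-1.21 ± 0.07, 2.32-fold). On array 1 its arch signal also lay below the highest negative control spot, and without background subtraction its ratio of -0.95 did not reach 2-fold. Probe A_52_P232508 read 265.6 and 315.5 in the arch pool and 411.8 and 357.9 in the thoracic pool, with log2 ratios of -0.51 and -0.43 (-0.47 ± 0.06, 1.39-fold), and did not pass. The pair differed by -0.65 on array 1 and by -0.83 on array 2, a mean of -0.74 ± 0.13 log2 units, and by -1.79 ± 0.04 in the deposited ratios.

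Mup5 is another member known from glands, and its probe A_52_P412506 showed the smallest difference. It read 216.2 and 272.6 in the arch pool and 282.4 and 257.8 in the thoracic pool, so on array 2 the scanned arch signal was the higher one. After normalization its log2 ratios were -0.31 and -0.09 (-0.20 ± 0.15, 1.15-fold), and without loess array 2 turned to 0.06. Its mean exceeded the SD between arrays by little, and it did not pass in any setting tried. Mup5 is also among the transcripts listed for the brightest Mup1 probe, at -3.23, so the value for the probe listed for Mup5 alone is the one that bears on Mup5 by name.

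**Figure D3:**
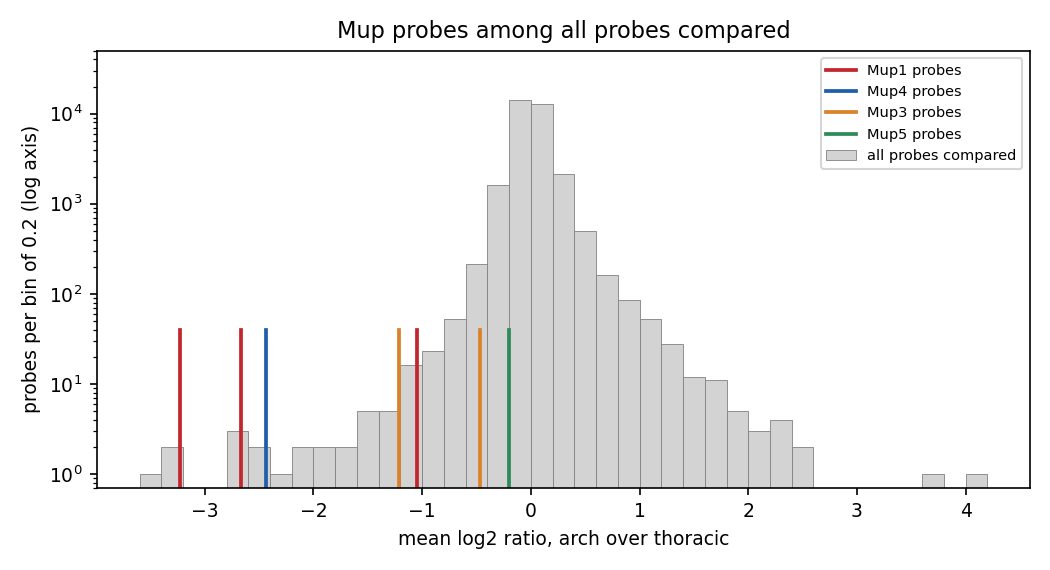
Number of probes per bin of 0.2 in the mean log2 ratio of arch over thoracic, for all 32176 probes compared (grey bars, log axis), with the 7 Mup probes as vertical lines coloured by gene. The lines of 2 Mup1 probes and the Mup4 probe stand in the thin thoracic tail near -3.23, -2.67 and -2.44, and those of Mup5 and 1 Mup3 probe near the bulk.

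The genes whose ratios were nearest to the brightest Mup1 probe, by Euclidean distance over the 2 arrays among 16298 genes with a symbol, were Hoxb7 (0.05 log2 units away), Hoxa7 (0.31), Sfrp4 (1.24), C1qtnf3 (1.51) and Pax1 (1.62). With 2 arrays of the same pools this measure says only that the ratios were of similar size. On chromosome 4, 10 of the 10 nearest genes compared beside the family (5 on each side) passed in neither direction. The same held for 22670 of all 22811 genes compared, so nothing is read from that count. The log2 ratios of the 10 ran from -0.23 (Cdc26) to 0.24 (Slc31a2) with a median of 0.03. Between the first and last Mup gene lie 24 genes of other names, of which 0 were compared. Snx30 (0.23 ± 0.02) and Zfp37 (-0.01 ± 0.02) are the nearest compared on the 2 sides.

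Of 15 compared genes that mark hepatocytes, the main source of major urinary proteins, 0 passed towards the thoracic pool, against 0.145% of all 22811 genes compared (each by its brightest probe). Of the 15, 12 lay below 0 (80.0%, and 52.7% of all genes did), with a median log2 ratio of -0.12, or -0.27 in the deposited ratios, where all genes had -0.01 in both. Alb, serum albumin, read 123.6 and 107.9 in the arch pool and 160.6 and 165.7 in the thoracic pool, where the highest negative control spots of the arch channels read 122.7 and 100. Its log2 ratio was -0.62 ± 0.12, and -1.34 in the deposited ratios. The fibrinogen chains Fgb (-0.33 ± 0.17) and Fgg (-0.29 ± 0.09) and Apoa2, an apolipoprotein (-0.27 ± 0.06), followed, with Apoa2 not well above background in the arch pool. The arch signals of Fgb (119.2 and 97.1) and Fgg (100.5 and 93.4) lay below those highest negative control spots on both arrays. The sizes of these ratios are therefore poorly fixed. Ass1, an enzyme of the urea cycle that other tissues also make, stood at 0.39 ± 0.02. Not all of the list was dim. Tat, an enzyme of tyrosine breakdown, read 697.9 and 1049.0 in the arch pool and 868.8 and 773.9 in the thoracic pool (0.05 ± 0.10). Cyp2e1, a cytochrome P450, read 585.0 and 758.5 against 785.4 and 629.1 (-0.10 ± 0.09).

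Against that direction Ahsg, fetuin-A, another protein secreted by liver, passed as higher in the arch pool (1.29 ± 0.02, 2.45-fold), where 0.473% of all genes passed. The hepatocyte markers Ttr, Apoc3, Serpina1b and Cps1 were on the array but not bright enough to compare. The summed signal of the 15, as scanned and with no background taken off, was 3489 and 4102 in the arch pool and 3541 and 3357 in the thoracic pool. Ahsg, Tat and Cyp2e1 are its brightest terms, so the sum does not bear on the dim liver genes. The part of liver transcripts in the Mup ratios was not tested.

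Among the other lipocalins, the wider protein family of the Mups, 0 of 13 compared passed in either direction. Of all genes, 0.145% passed towards the thoracic pool and 0.473% towards the arch. Of the 13, 9 lay below 0 (69.2%, against 52.7% of all genes) and the median was -0.12. Apod, apolipoprotein D, had the lowest value (-0.64 ± 0.03), with arch signals of 288.8 and 348.1 and thoracic signals of 496.5 and 439.0. Ambp, the precursor of alpha-1-microglobulin, stood at -0.36 ± 0.10, and Lcn2, the iron-siderophore carrier, at 0.38 ± 0.10 in the other direction, followed by Rbp4, the retinol carrier (0.22 ± 0.04). The lipocalins Lcn3, Lcn4, Lcn5, Lcn8, Obp1a and Obp2a were not bright enough to compare. Of the list of pheromone and odour carriers only Trpc2, a channel of the vomeronasal organ, was compared (-0.04 ± 0.13).

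Of the hormone pathways that set Mup transcription in liver, 0 of 16 genes of growth hormone signalling through STAT5 and 0 of 16 liver and hormone-response transcription factors passed in either direction. Over all genes 0.145% passed towards the thoracic pool and 0.473% towards the arch. Of the growth hormone genes 7 lay below 0 (43.8%) and the median was 0.01. Ghr, the growth hormone receptor, stood at -0.52 ± 0.02 (its 3 probes between -0.52 and -0.24), while Cish (0.76 ± 0.03), a feedback inhibitor of that signalling, and Igf1 (0.46 ± 0.09), its growth factor target, were on the arch side, before Stat3 (0.29 ± 0.03) and the receptor Igf1r (0.25 ± 0.03). The 2 probes of Stat3 lay on either side of 0, at -0.14 and 0.29. Stat5a and Stat5b, the factors themselves, stood at 0.00 ± 0.03 and -0.01 ± 0.15. The transcription factors had a median of 0.00, with the nuclear receptor Hnf4a of liver at -0.15 ± 0.03, the oestrogen receptor Esr1 at -0.31 ± 0.03 and the thyroid hormone receptors Thra and Thrb at 0.15 ± 0.00 and -0.12 ± 0.00. The 2 probes of Esr1 ran from -0.31 to 0.01 and those of Thrb from -0.12 to 0.01. Zhx2, a regulator of liver genes, stood at 0.02 ± 0.29 and was dim. Its arch signal on array 1 (102.1) and thoracic signal on array 2 (105.0) lay below the highest negative control spots (122.7 and 123.7).

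**Figure D4:**
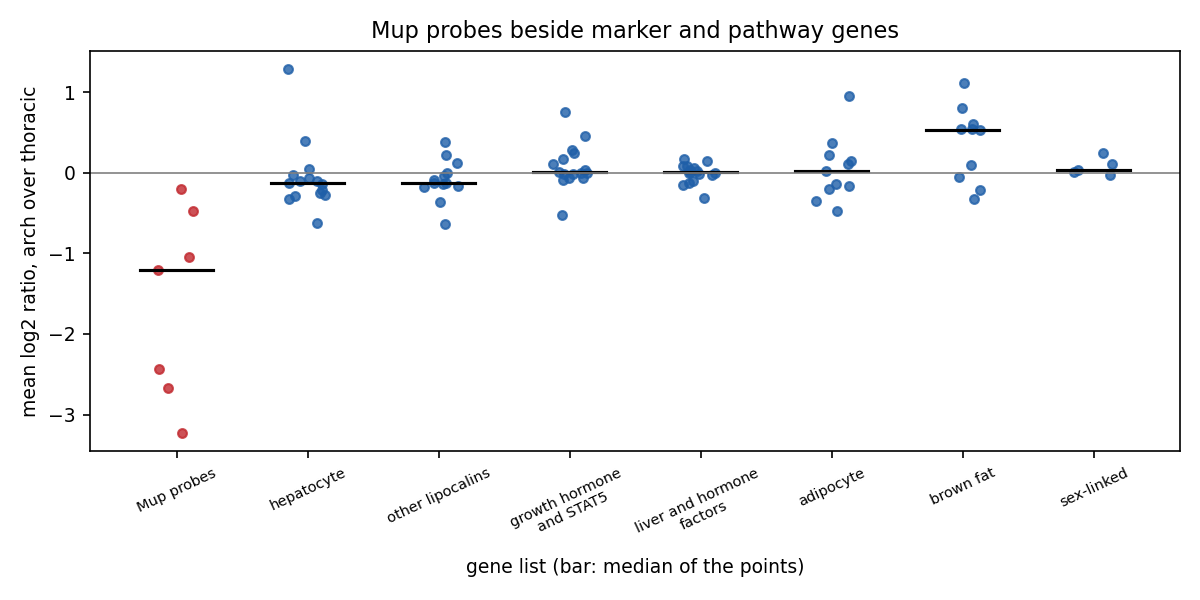
Mean log2 ratio of arch over thoracic for the 7 Mup probes (left) and for the compared genes of 7 lists, each point a gene by its brightest probe (saturated probes left out) and each bar the median of the points. The Mup median of -1.21 lies under every list median shown, which run from -0.12 for hepatocyte genes and other lipocalins to 0.54 for brown fat.

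Fat beside the vessel and the sexes of the mice were read in the same way. Of all 22811 genes compared, 0.145% passed towards the thoracic pool, 0.473% towards the arch, and 10797 lay above 0. Of 12 adipocyte genes 0 passed and the median was 0.02, with Retn, resistin, at -0.47 ± 0.15, Cfd, adipsin, at -0.35 ± 0.14, Lpl, lipoprotein lipase, at 0.95 ± 0.13, Pck1, an enzyme of glycerol synthesis in fat, at 0.37 ± 0.01 and the lipase Pnpla2 at 0.22 ± 0.18. Of 10 brown fat genes 1 passed, towards the arch, 7 lay above 0 and the median was 0.54. Dio2, which activates thyroid hormone, was the one that passed (1.12 ± 0.03). The respiratory chain subunits Cox7a1 and Cox8b stood at 0.80 ± 0.04 and 0.61 ± 0.02, and Zic1 (0.55 ± 0.04), Cidea (0.54 ± 0.03) and Ucp1, the uncoupling protein (0.53 ± 0.03), followed. The thoracic signals of Zic1 (93.2 and 109.7) lay below the highest negative control spots of those channels (93.6 and 123.7). Its ratio is therefore poorly fixed, and was 1.58 in the deposited ratios. Elovl3, which lengthens fatty acids, lay on the other side of 0 (-0.32 ± 0.10), as did Fabp3 (-0.21 ± 0.01). The arch signal of Elovl3 on array 1, 116.6, also lay below the highest negative control spot (122.7), and its deposited ratio was -0.85. Mup levels differ between the sexes in liver, and of 5 sex-linked genes 0 passed in either direction. Xist, transcribed from the inactive X chromosome, stood at 0.03 ± 0.06, and the Y-linked Eif2s3y, Uty, Kdm5d and Ddx3y at -0.03, 0.01, 0.11 and 0.25 (the probes of Ddx3y from 0.25 to 0.54).

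Markers of glands and other tissues were counted against the same shares, 0.145% of all genes towards the thoracic pool and 0.473% towards the arch. In the former direction 0 genes of these lists passed. Of 4 salivary and lacrimal genes 0 passed either way and the median was 0.00, with Amy1, an amylase, at 0.21 ± 0.00. Of the 9 on the array, Smr2, Smr3a, Dcpp1, Smgc and Scgb2b24 were not bright enough to compare. Of 6 mammary and epithelial genes 1 passed, towards the arch, and the median was 0.08. It was the keratin Krt18 (1.19 ± 0.06), followed by its partner Krt8 (0.94 ± 0.02, its 2 probes from 0.94 to 1.59). Epcam and Csn2 of that list were not bright enough to compare. Of 8 skeletal muscle genes 0 passed, 5 lay below 0 (62.5%, against 52.7% of all genes) and the median was -0.11. The lowest was Mylpf (-0.19 ± 0.19), and the brightest, Acta1, stood at 0.05 ± 0.13. The myosin heavy chain Myh4 had the largest value (0.70 ± 0.02). Its thoracic signal on array 2, 118.8, lay below the highest negative control spot of that channel (123.7). Of 10 macrophage genes 5 passed towards the arch, 8 lay above 0 (10797 of all 22811 genes did) and the median was 0.92. The scavenger-receptor protein Cd5l (4.09 ± 0.13) was the highest, before Gpnmb (2.34 ± 0.14), the galectin Lgals3 (1.65 ± 0.09), the lectin Clec7a (1.52 ± 0.05) and Mpeg1 (1.33 ± 0.05). The 2 probes of Mpeg1 were unequal, at 0.36 and 1.33. The rest of the list did not pass: Cd68 (0.51 ± 0.07), Marco (0.17 ± 0.03), Csf1r (0.07 ± 0.09), Adgre1 (-0.06 ± 0.01) and Cd14 (-0.14 ± 0.06). Of 6 endothelial genes 1 passed, also towards the arch, 6 lay above 0 and the median was 0.67. The one that passed was Kdr, the VEGF receptor of endothelial cells (1.24 ± 0.04), and Vwf, von Willebrand factor, stood at 0.87 ± 0.04. The defining smooth muscle markers were all well above background in both pools, with 0 of 10 past the size rule and a median of 0.13 (down to -0.09 in the settings tried), and 3 were saturated. Each array carried 41534 gene spots, of which 76.5% to 82.6% were well above background per pool, and median signals ran from 132.4 to 142.2 against negative control means of 77.0 to 97.1.

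The direction of every Mup probe's mean ratio held under each way of processing that was tried, whereas the size for the dim ones did not. The probe with the widest range was Mup3's A_52_P232507, from -2.38 in the deposited ratios to -0.95 without background subtraction. The dim Mup1 probe A_52_P348256 ranged from -1.94 to -0.85 and A_51_P180314 from -3.58 to -2.41. The brightest Mup1 probe stayed between -3.46 and -3.13. In the deposited ratios the probe A_51_P180314, at -3.58, stood below the brightest one, so the order of these 2 Mup1 probes differed between the settings.

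**Figure D5:**
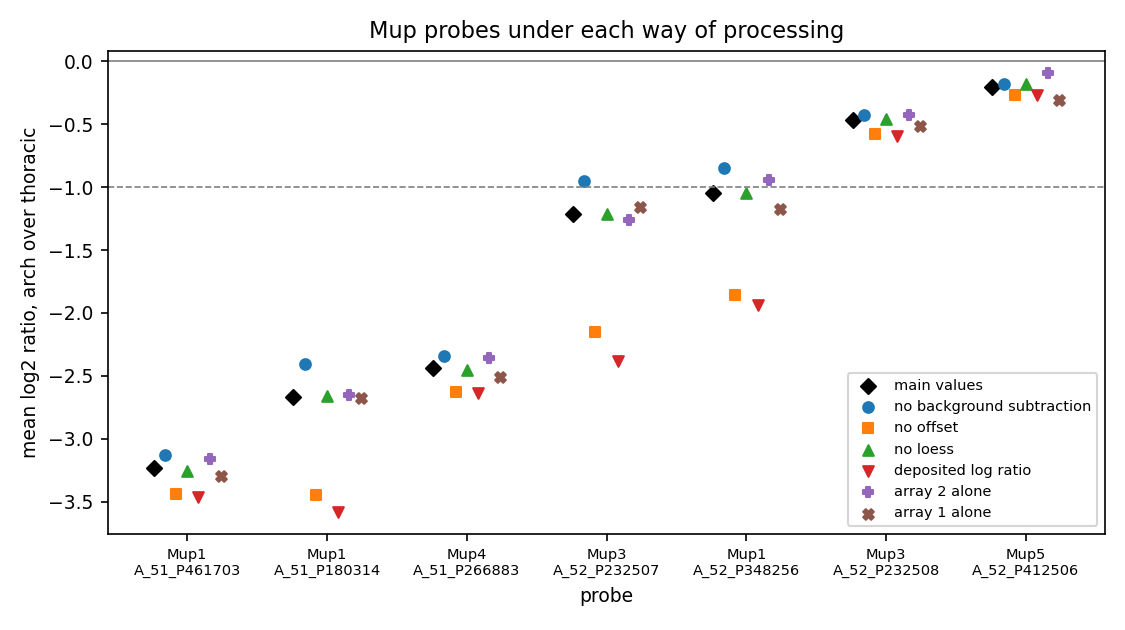
Mean log2 ratio of arch over thoracic for each Mup probe under 7 ways of processing, 1 symbol each, with the 2-fold limit dashed. The bright probes A_51_P461703 and A_51_P266883 move little, the dim ones spread, as from -2.38 to -0.95 for A_52_P232507, and no symbol lies above 0.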

How the data were processed

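The deposited scanner tables hold intensity values per spot, as scanned, with no normalization: mean red and green signals and the median local background. The scanner software, Agilent Feature Extraction, is version 8.1.1.1 per the file headers and 9.1.1.1 per the submitters' processing notes. The authors' deposited log10 ratio sets red against green after background and dye correction by that software. The deposited p-value per spot, which covers 1 array's error only, was not used. The deposited series table repeats the log10 ratio turned to arch over thoracic (Pearson correlation 1.00 with the scanner's on both arrays, medians 0.00). For the probes no genome build is named in the sources used here.

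Mean signals were corrected with normexp (offset 50) and loess in limma 3.58.1 (R 4.3.3), giving controls no weight in the curve. Outlier spots (8 and 5) and all controls were then dropped, and array 1 was turned to arch over thoracic before averaging. A probe was compared if well above background in 1 pool on both arrays (32176 of 41174). Gene names came through RefSeq GRCm38.p6: 21445 probes by accession, 5431 by current symbol, 4636 by an unambiguous synonym, with 9662 left as the files name them. The normalization and the size rule were tested on simulated arrays in which only bright spots were given known ratios. That test does not cover the dim Mup probes.

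The labels give 1 pool per segment, so no test was possible and differences were called by size. The named genes are all Mup probes, up to 5 members of each gene list, by passing and then size (members named besides these were chosen after their values were seen), the 5 nearest genes by ratio and the flanking genes. A gene that this rule selects is not reported here. The members and lists were chosen with earlier results of these data known. The alternatives were no background subtraction, no offset, no loess, the deposited ratio, no brightness filter, a 1.5-fold limit and each array alone.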

Additional observations from a re-analysis of the deposited data

How the results depend on the processing

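Of 42 Mup probe ratios recomputed under 6 alternatives, 39 kept their direction and their side of the size rule, 3 fell short of it and none changed sign. The filter on dim probes cannot change the ratio of a probe already compared and is not counted. Without background subtraction 3 Mup probes passed and their median was -0.95. The median was -2.15 with no offset and -2.38 in the deposited ratios. With each array left out in turn the number of passing Mup probes was 4 and 5, and the median -1.26 and -1.17. Without array 1 the probe that fell short was the dim Mup1 probe A_52_P348256 (-0.94). Over all probes, 41 passed towards the thoracic and 120 towards the arch pool, against 79 and 243 with no offset, 96 and 300 in the deposited ratios and 122 and 386 with the 1.5-fold limit. No paired analysis was possible because both arrays hold the same pools. The small distance of the dim probes from the negative controls limits their ratios.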

Other observations

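A further probe, A_52_P328440, falls outside the name rule because the files call it AA674270, an expressed sequence tag whose description likens it to major urinary protein IV. It was chosen after its values were seen. It read 152.5 and 120.0 in the arch pool and 403.0 and 341.4 in the thoracic pool, with log2 ratios of -1.51 and -1.85 (-1.68 ± 0.24), a thoracic level 3.20 times the arch level. The deposited ratios gave -2.49.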
